A study of Mus musculus with 4 samples.

Results

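Transcripts of the unfolded protein response and of the response to amino acid shortage were followed across 4 arrays of mouse melanoma cells. The transcripts were those of 10 genes, Hspa5, Dnajb9, Herpud1, Xbp1, Atf4, Ddit3, Atf3, Chac1, Trib3 and Asns, identified as the non-control probes whose RefSeq accession belonged to one of these genes. The rule gave 18 probes for the 10 genes, of 23462 symbols matched to probes on the array, and all 18 probes passed the filter on dim probes. The cells were B16-F10, an established pigmented melanoma line, grown in serum-containing medium. The control cultures received no recombinant protein, and the Cdh1 cultures received recombinant Cdh1 at 100 ng/mL for 24 h. Cdh1 is the mouse symbol of E-cadherin, an epithelial adhesion protein, and the labels give no other name for the protein added. Per the series' design text and the sample titles, there were 2 independent sets, each of 1 control and 1 Cdh1 culture, so that each treatment and each set was measured on 2 arrays.

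When unfolded proteins build up in the endoplasmic reticulum (ER), the membrane sensors Ern1 (IRE1), Eif2ak3 (PERK) and Atf6 are activated. Ern1 splices the Xbp1 transcript, Atf6 is cut to release a transcription factor, and Eif2ak3 phosphorylates the initiation factor eIF2 alpha. Spliced Xbp1 and cut Atf6 raise the genes of chaperones and of the machinery that degrades misfolded proteins. Phosphorylated eIF2 alpha favours translation of Atf4, and so does the kinase Eif2ak4 (GCN2), which senses uncharged transfer RNA when amino acids are short. Atf4 raises genes of amino acid synthesis and transport together with Ddit3, Atf3, Trib3 and Chac1. Splicing, cleavage and translation are not read by these arrays, which report the amount of transcript.

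Signals are given as log2 of the processed intensity relative to the 75th percentile of the array, so that a signal of 0 lies at that percentile. That percentile corresponded to a processed intensity between 568.7 and 623.2, from 59.29% to 61.33% of non-control spots on an array rose well above background, and 0 spots were saturated. Signals of the arrays of a set correlated at 0.9976 and 0.9978 across probes, and signals of arrays from different sets at 0.9908 to 0.9922. Precision was limited by having 4 arrays, since with 2 a group the smallest p an exact permutation test allows is 0.333. Tests below are limma's moderated tests over 32568 probes with Benjamini-Hochberg adjustment, and a probe was called at an adjusted p under 0.05. Nothing in the labels says what separates the sets beyond their number, or whether cultures of a set were grown apart, and the p-values measure only the spread between these samples, which may be technical. A gene is given by its brightest probe unless stated otherwise.

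The ER chaperone Hspa5, its cofactor Dnajb9, the degradation factor Herpud1 and the transcription factor Atf3 were lower in set 2 than in set 1, by 1.52-fold to 2.05-fold. The signals of Atf4, Asns, Trib3, Ddit3, Chac1 and Xbp1 differed between the sets by 0.25 or less on the log2 scale and were not called. Between Cdh1 and control arrays, 0 of the 10 genes were called.

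**Figure D1:**
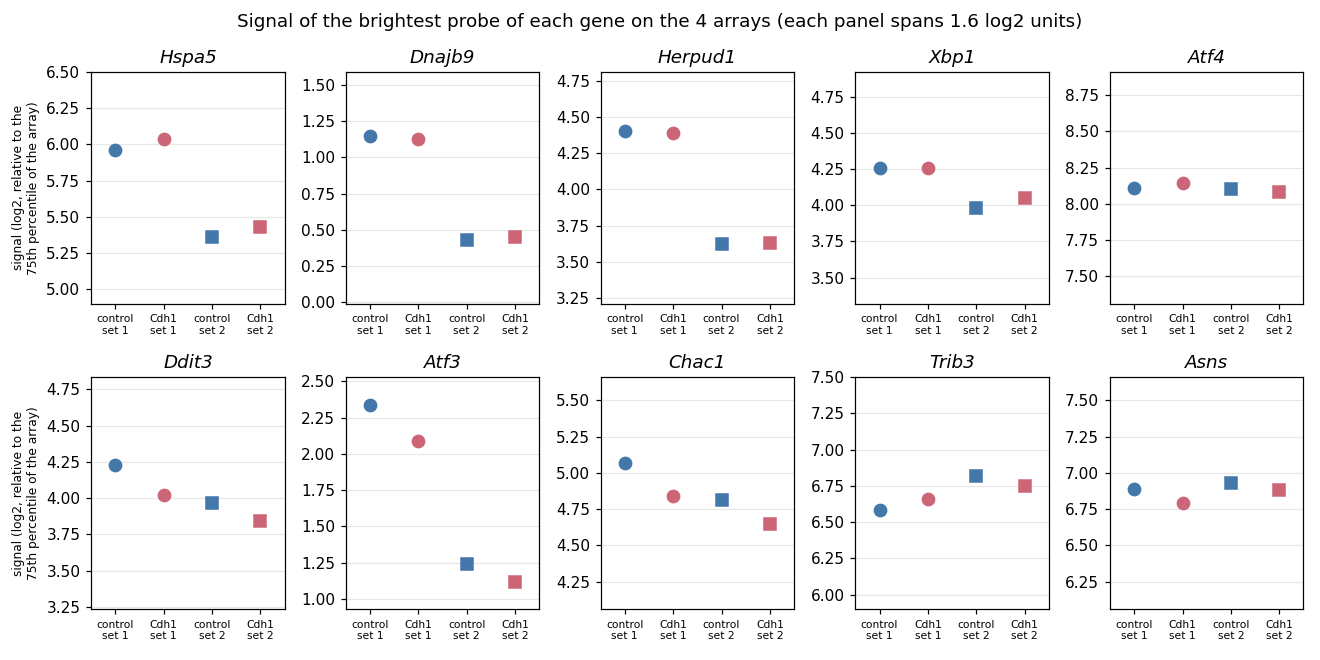
Signal of the brightest probe of each of the 10 genes on each array, as log2 relative to the 75th percentile of the array, with control arrays in blue, Cdh1 arrays in red, set 1 as circles and set 2 as squares. Each panel spans the same range, and the set 2 arrays lie apart from the set 1 arrays in the panels of Hspa5, Dnajb9, Herpud1 and Atf3.

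Hspa5 encodes BiP, the abundant Hsp70 chaperone of the ER lumen that also holds the sensors inactive. Its brightest probe, A_55_P2076772, had a signal of 5.96 (control) and 6.04 (Cdh1) in set 1, and of 5.36 (control) and 5.43 (Cdh1) in set 2. Both arrays of set 2 were below both arrays of set 1, and within each set the Cdh1 array was slightly above its control. The mean signal was 6.0 ± 0.06 (SD, n = 2) in set 1 and 5.40 ± 0.05 (SD, n = 2) in set 2. The difference of −0.60 (SE 0.06) amounted to a 1.52-fold lower signal in set 2, with a 95% interval of 1.34 to 1.72 and an adjusted p of 0.0197 in limma's test. The other Hspa5 probes differed by −0.69 each, with adjusted p-values of 0.0173 and 0.0166, so that all 3 probes of the gene were called. In these cultures, fewer cells with the transcript and less transcript per cell cannot be told apart.

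Dnajb9 encodes ERdj4, an ER J-domain protein that hands clients to Hspa5 and acts on Ern1. The signals of its brightest probe, A_55_P2811370, were 1.15 and 1.13 in the control and Cdh1 arrays of set 1 and 0.43 and 0.45 in those of set 2. The sets did not overlap, and the arrays within a set differed by no more than 0.02. The gene was 1.62-fold lower in set 2 (95% interval 1.46 to 1.79, limma, adjusted p = 0.0134). A second, dim Dnajb9 probe read −3.58, −3.36, −3.90 and −3.86 in the order control set 1, Cdh1 set 1, control set 2 and Cdh1 set 2. That probe had a set difference of −0.41 and was not called (limma, adjusted p = 0.072).

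Herpud1 encodes an ER membrane protein that assembles ubiquitin ligase complexes for ER-associated degradation. Its brightest probe, A_51_P434101, gave 4.40 without and 4.39 with Cdh1 in set 1, and 3.62 without and 3.63 with Cdh1 in set 2. It was the most even of the 10 genes within sets, with an SD of 0.01 in each, and it was 1.70-fold lower in set 2 (95% interval 1.54 to 1.88). Its adjusted p of 0.0117 in limma's test was the lowest among the brightest probes of the 10 genes. The second Herpud1 probe, which lies in the last 24 rows of the slide, read 1.88, 1.87, 1.09 and 1.02 in the same order. It was 1.76-fold lower in set 2 (limma, adjusted p = 0.0119), so that both probes of the gene were called.

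The promoters of Hspa5 and Herpud1 are shown because each holds an element known to respond to cut Atf6 or spliced Xbp1, and both genes were lower in set 2. The windows are the 250 bases before the transcription start from RefSeq's table of assembly GRCm38.p6, printed in the direction of transcription. The array design itself refers to mm9, and no coordinate of the array was used. Capitals mark matches to the ER stress response element (ERSE: CCAAT, any 9 bases, CCACG), to ERSE-II (ATTGG, any 1 base, CCACG) or to the ATF4-bound element CARE (TGATGNAA), each searched on both strands in windows from 250 bases before to 50 bases after the start. Hspa5 lies on chr2 and its window is chr2:34771840-34772089 on the plus strand, and that of Herpud1 is chr8:94386179-94386428 on the plus strand.
Hspa5: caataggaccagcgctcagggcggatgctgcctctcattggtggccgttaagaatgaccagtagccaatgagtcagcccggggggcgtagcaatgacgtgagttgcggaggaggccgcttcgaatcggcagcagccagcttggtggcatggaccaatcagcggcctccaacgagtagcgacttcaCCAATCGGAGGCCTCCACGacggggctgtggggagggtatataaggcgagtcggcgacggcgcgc
Herpud1: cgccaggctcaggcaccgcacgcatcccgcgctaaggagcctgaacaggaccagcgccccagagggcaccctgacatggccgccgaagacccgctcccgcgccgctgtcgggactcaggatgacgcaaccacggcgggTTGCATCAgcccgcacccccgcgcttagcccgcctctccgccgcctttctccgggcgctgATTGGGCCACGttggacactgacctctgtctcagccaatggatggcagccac
In Hspa5 the capitals are an ERSE from −65 to −47, counted from the transcription start. In Herpud1 the first capitals are a CARE from −112 to −105, on the opposite strand and therefore printed as its reverse complement, and the second are an ERSE-II from −52 to −42. An ERSE match was held by 39 of the 32851 promoter windows in the table (0.119%), an ERSE-II match by 12 (0.0365%) and a CARE match by 1304 (3.97%). Matches in these 10 genes did not overlap each other. Dnajb9 had no match to ERSE, ERSE-II, CARE, the XBP1-bound element UPRE (TGACGTGG) or the cyclic AMP element CRE (TGACGTCA) in its window, which says only that these letters are not there.

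Xbp1, the transcription factor whose transcript Ern1 splices, was read by 3 probes. Its brightest probe, A_55_P1994032, gave 4.26 on both arrays of set 1 and, in set 2, 3.98 without and 4.05 with Cdh1. Both arrays of set 2 were lower, and the mean difference of −0.25 was not called (limma, adjusted p = 0.0687). The other probes differed by −0.23 (adjusted p = 0.0881) and −0.11 (adjusted p = 0.363, both limma). With a trended and robust variance prior Xbp1 was called lower (limma, adjusted p = 0.00066). These probes were not assigned to the spliced or the unspliced form here.

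Atf4, the transcription factor common to the ER and amino acid arms and regulated largely in translation, had the most even signals across the arrays. Its brightest probe, A_55_P1979728, read 8.11 without and 8.14 with Cdh1 in set 1, and 8.10 without and 8.08 with Cdh1 in set 2. The set difference was −0.03, with a 95% interval from −0.18 to 0.12 (limma, adjusted p = 0.71), and its sign depended on the scaling, since it was 0.12 with quantile normalization, 0.13 with normexp and 0.02 in the authors' table. The second probe differed by −0.05 (limma, adjusted p = 0.508).

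Atf3 and Ddit3 encode transcription factors raised by Atf4, the former also an early response gene of many stresses and the latter, CHOP, known for its part in cell death under lasting ER stress. Atf3, on probe A_52_P452689, had signals of 2.34 (control) and 2.09 (Cdh1) in set 1 and of 1.24 (control) and 1.12 (Cdh1) in set 2. The sets were further apart than for the other 9 genes, with means of 2.22 ± 0.18 (SD, n = 2) and 1.18 ± 0.09 (SD, n = 2). Atf3 was 2.05-fold lower in set 2 (95% interval 1.63 to 2.57, limma, adjusted p = 0.0215), and only 2.28% of the tested genes had a lower set difference. It was the single member lower by at least 2-fold, a limit that 2.45% of all tested genes passed. Its difference of −1.03 was short of that limit in the authors' table (−0.99), with normexp (−0.90), without control set 1 (−0.91) and without Cdh1 set 2 (−0.97). Ddit3, on probe A_52_P533146, read 4.23, 4.02, 3.97 and 3.84 in the same order. Both its arrays of set 2 lay below those of set 1, and the difference of −0.22 was not called (95% interval −0.51 to 0.07, limma, adjusted p = 0.219).

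Chac1, Trib3 and Asns are genes raised by Atf4. Chac1 encodes an enzyme that degrades glutathione, Trib3 a pseudokinase that restrains Atf4 and Akt, and Asns the enzyme that makes asparagine. Chac1, on probe A_51_P134812, read 5.07 (control) and 4.84 (Cdh1) in set 1 and 4.81 (control) and 4.65 (Cdh1) in set 2, a set difference of −0.23 that was not called (95% interval −0.55 to 0.10, limma, adjusted p = 0.251). Trib3, on probe A_55_P2009988, was the single member with both arrays of set 2 above both of set 1. Its signals were 6.58, 6.66, 6.82 and 6.75 in the same order, and its difference of 0.17 was not called (95% interval −0.01 to 0.35, limma, adjusted p = 0.159). It was called higher with normexp (adjusted p = 0.0225) and with the trended and robust prior (adjusted p = 0.00682, both limma). Asns, on probe A_55_P1959748, read 6.89, 6.79, 6.93 and 6.88. Its sets overlapped, with a difference of 0.06 (95% interval −0.12 to 0.24, limma, adjusted p = 0.524). A second Asns probe, at 3.31, 3.24, 3.54 and 3.45, did not overlap between the sets and was 0.21 higher in set 2 (limma, adjusted p = 0.108).

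The CARE motif, which a C/EBP partner and Atf4 bind together, was found in 5 of the 10 windows, those of Atf3, Chac1, Trib3, Asns and Herpud1. The windows before the starts of Atf3, Chac1 and Asns are shown because Atf3 was lower in set 2 while the other pair, with the same motif, was not called. All are from assembly GRCm38.p6, at chr1:191183334-191183583 on the minus strand for Atf3, chr2:119350992-119351241 on the plus strand for Chac1 and chr6:7693210-7693459 on the minus strand for Asns, with the CARE in capitals.
Atf3: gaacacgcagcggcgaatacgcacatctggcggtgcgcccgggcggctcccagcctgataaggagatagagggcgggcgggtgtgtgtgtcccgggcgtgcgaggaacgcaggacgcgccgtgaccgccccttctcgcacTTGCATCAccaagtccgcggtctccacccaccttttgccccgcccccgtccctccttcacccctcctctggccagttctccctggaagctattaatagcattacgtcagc
Chac1: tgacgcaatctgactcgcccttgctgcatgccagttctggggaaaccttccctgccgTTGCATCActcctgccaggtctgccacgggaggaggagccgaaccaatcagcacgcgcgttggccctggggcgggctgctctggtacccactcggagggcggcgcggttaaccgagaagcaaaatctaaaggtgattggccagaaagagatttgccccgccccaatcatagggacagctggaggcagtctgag
Asns: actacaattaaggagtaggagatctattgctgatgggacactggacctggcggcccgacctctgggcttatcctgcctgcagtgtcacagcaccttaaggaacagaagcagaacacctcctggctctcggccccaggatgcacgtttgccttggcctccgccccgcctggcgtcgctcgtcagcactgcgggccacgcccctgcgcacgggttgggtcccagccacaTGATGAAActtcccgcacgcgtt
The match lay from −110 to −103 in Atf3 and from −193 to −186 in Chac1, both on the opposite strand, and from −23 to −16 on the same strand in Asns. In Trib3 it lay within the transcribed part, from 15 to 22, on the opposite strand. UPRE and CRE matches were found in none of the 10 windows, against 0.676% and 1.79% of all windows. Of the 4 genes lower in set 2, Herpud1 and Atf3 held a CARE, and Hspa5 and Dnajb9 held none. Of the other 6 genes, Chac1, Trib3 and Asns held one.

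Counted over the members, 4 of 10 genes were called lower in set 2 and 0 of 10 higher, while 10.5% of the 14454 tested genes were called lower and 7% higher. The 10 genes were chosen with earlier results of these data known, so the shares here are a description only. Over probes, 7 of the 18 were called lower, against 7.81% of all tested probes. Both arrays of set 2 lay below both of set 1 for 8 of 10 genes, a pattern that 40.7% of all tested genes had, and above for 1 of 10, as did 31.5%. The median set difference of the 10 genes was −0.235, and that of all tested genes −0.0289. Each of the 4 called genes differed by a like amount without and with the recombinant protein. The fit without a block takes the 2 arrays of a set as replicates, so a call itself favours such agreement. Between the control arrays the set differences were −0.60 for Hspa5, −0.72 for Dnajb9, −0.78 for Herpud1 and −1.10 for Atf3. Between the Cdh1 arrays they were −0.61, −0.67, −0.75 and −0.97 in the same order. Whether the set difference depended on Cdh1 could not be tested, because each set held 1 array per treatment. With treatment as a block the same 4 genes were called, with adjusted p-values of 0.0426 to 0.0494 in limma's test. With that block, 562 of the 14454 tested genes were called lower and 314 higher. With dim probes kept in the fit, 0 of the 10 genes and 0 of 56605 probes were called. The lowest adjusted p of the 10 genes was then 0.0937 in limma's test. Without any 1 of the 4 arrays, 1 set was left with 1 array, so only the differences are given here. They ran from −0.64 to −0.56 for Hspa5, −0.71 to −0.68 for Dnajb9, −0.78 to −0.76 for Herpud1 and −1.16 to −0.91 for Atf3.

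**Figure D2:**
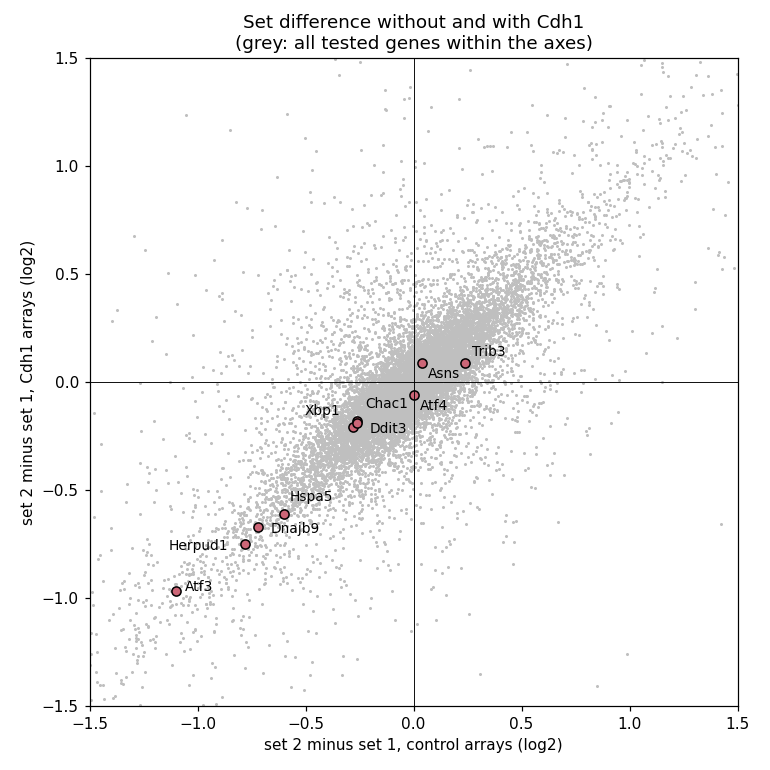
Difference between set 2 and set 1 on the log2 scale in the control arrays (horizontal axis) and in the Cdh1 arrays (vertical axis), for the 10 genes in red over the tested genes within the axes in grey. Atf3, Herpud1, Dnajb9 and Hspa5 lie at the lower left, at −0.60 to −1.10 on the horizontal axis, and Asns and Atf4 lie near the origin.

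Between Cdh1 and control, none of the 10 genes was called. The mean Cdh1 difference was smaller in size than the set difference for every gene but Asns, at −0.07 beside 0.06. The largest Cdh1 differences were those of Chac1, Atf3 and Ddit3, all lower with Cdh1 in both sets. Chac1 differed by −0.24 in set 1 and by −0.17 in set 2, a mean difference of −0.20 with a 95% interval from −0.63 to 0.22 (limma, adjusted p = 1). Atf3 differed by −0.26 and −0.13, and Ddit3 by −0.21 and −0.13, in the same order. Their mean differences were −0.19 and −0.17, each with an adjusted p of 1 in limma's test. For Chac1 the absolute Cdh1 difference was larger than that of 91.3% of the tested genes. Hspa5 was higher with Cdh1 by 0.08 in set 1 and by 0.07 in set 2, and its 95% interval ran from −0.82 to 0.96. Xbp1 was higher by 0.01 and 0.07. Dnajb9, Herpud1, Atf4 and Trib3 had Cdh1 differences of opposite sign in the sets, of 0.08 or less in size. Asns differed by −0.10 and −0.05 and was the single member whose Cdh1 and control arrays did not overlap.

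As counts, 0 of 10 genes were called between Cdh1 and control, against 0% of all tested genes, and 0 of 10 had an unadjusted p under 0.05 in limma's test (1 of 10 with the set as a block). Among all tested genes, 83 lower and 77 higher had such a p in the fit without a block. With the set as a block, 2335 of the 32568 tested probes had one. Of the members, 4 of 10 were lower with Cdh1 in both sets, as were 31.6% of all tested genes, and 2 of 10 were higher in both sets, as were 19.7%. Groups that did not overlap were seen for 1 of 10 members and for 14.5% of all tested genes. These shares lie close to those of all genes. A Cdh1 difference below 0 was found in 5 of 10 members and in 58.6% of all tested genes. The median Cdh1 difference of the 10 genes was −0.0011, beside −0.0143 over all tested genes. The intervals above come from the fit without a block, in which the difference between the sets widens them. For Chac1 the 95% interval of the Cdh1 signal ran from 0.648-fold to 1.17-fold of control without a block and from 0.757-fold to 0.999-fold with the set as a block (limma, adjusted p = 0.696). For Atf3 it ran from 0.313-fold to 2.44-fold and from 0.75-fold to 1.02-fold, and for Hspa5 from 0.568-fold to 1.95-fold and from 0.923-fold to 1.2-fold, in the same order.

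**Figure D3:**
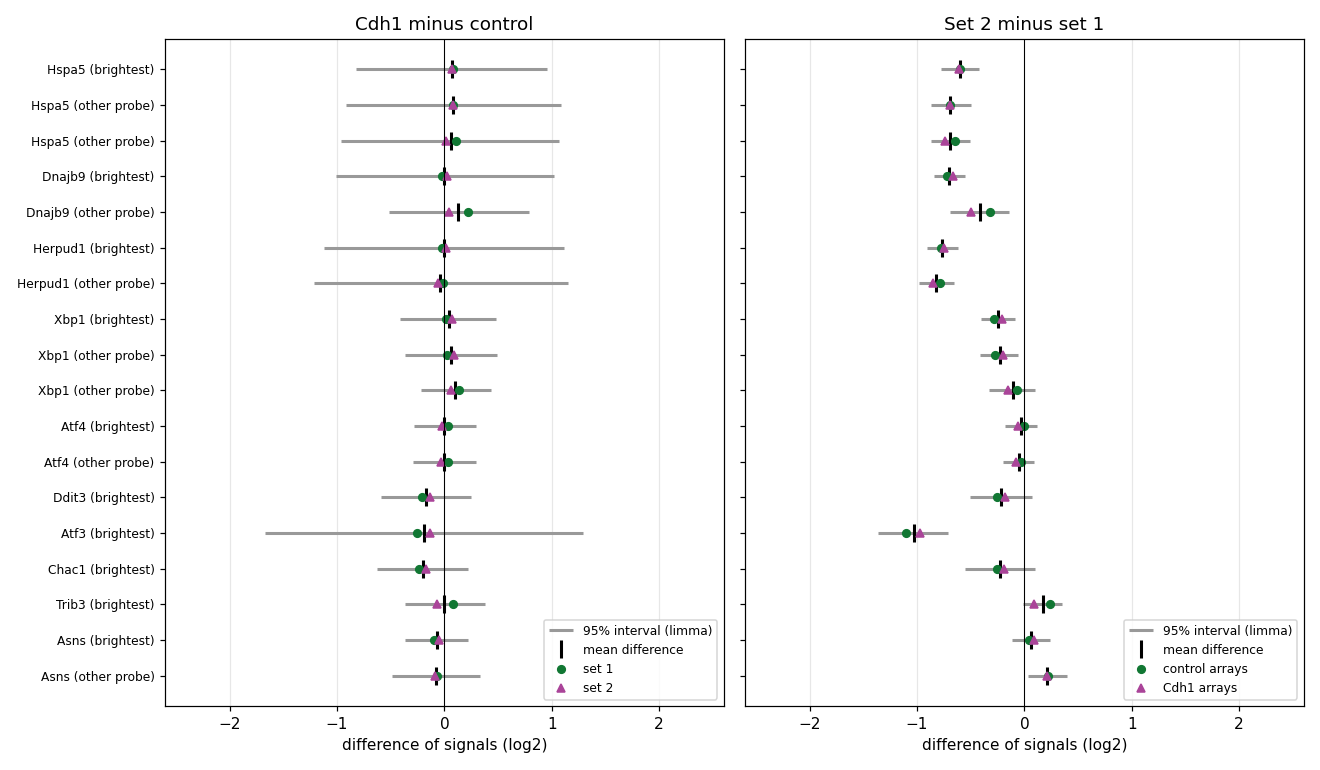
Difference in signal on the log2 scale for each of the 18 probes, Cdh1 minus control (left) and set 2 minus set 1 (right), with the mean as a black bar, the 95% interval of limma's fit without a block as a grey line, and the difference in each set or treatment as points. The left-hand intervals all include 0, and on the right those of Hspa5, Dnajb9, Herpud1 and Atf3 lie below 0. The intervals of the Xbp1 probes with differences of −0.25 and −0.23 also lie below 0, and that of the second Asns probe lies above 0. These Xbp1 and Asns probes were not called.

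The wider pathway was read through 4 lists. For each, the counts called between the sets are to be read beside the 10.5% of all tested genes called lower and the 7% called higher. Of the 14454 tested genes, 562 were called lower and 314 higher with treatment as a block. Those counts were 1239 and 1205 in the authors' table, 1431 and 1141 with quantile normalization, and 2415 and 2177 with normexp. Without the last 24 rows they were 1477 and 1021 of 13560. Among 15 sensors and signalling proteins, 3 were lower in set 2 and 0 higher, with a median set difference of 0.00519. Between 1 and 2 were called higher with quantile normalization, with normexp, in the authors' table and without the last 24 rows. Ppp1r15a, the stress-induced subunit that directs a phosphatase to eIF2 alpha, was 1.78-fold lower, with signals of 5.10, 4.82, 4.19 and 4.06 in the order control set 1, Cdh1 set 1, control set 2 and Cdh1 set 2 (limma, adjusted p = 0.0328). The sensor genes Atf6 and Ern1 were lower, with differences of −0.58 (adjusted p = 0.0183) and −0.32 (adjusted p = 0.043) in limma's test. With treatment as a block their adjusted p-values were 0.0519 and 0.0841, and only Ppp1r15a was called. The sensor gene Eif2ak3 and the Ern1 adaptor Traf2 had set differences of 0.21 (adjusted p = 0.119) and 0.30 (adjusted p = 0.0513, both limma), where the second Eif2ak3 probe differed by −0.08 and the second Traf2 probe, at 0.34, was called. The brightest Traf2 probe was called higher with quantile normalization (adjusted p = 0.0368), normexp (0.00198), the authors' table (0.0452) and 4 of the other alternatives, and that of Eif2ak3 with normexp (0.0386) and the trended and robust prior (0.016, all limma). Eif2ak3 had the highest Cdh1 difference of this list, 0.08, and Ppp1r15a the lowest, −0.20, and neither was called in that comparison.

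Of 16 ER chaperones and folding enzymes other than Hspa5, 3 were called lower in set 2 and 0 higher, with a median of −0.109. Of all tested genes, 10.5% were called lower and 7% higher. The oxidase Ero1a, which passes disulfide bonds to folding proteins, was 1.61-fold lower, at 5.03, 4.91, 4.36 and 4.20 in the same order (limma, adjusted p = 0.0268). The lectin chaperone Calr and the ER protein Sdf2l1 were lower, with differences of −0.54 (adjusted p = 0.0177) and −0.47 (adjusted p = 0.0309, both limma). With treatment as a block, Calr and Sdf2l1 had adjusted p-values of 0.0512 and 0.0596, and only Ero1a was called. The abundant chaperones Hsp90b1, Canx and Pdia6, picked here after their values were seen, had set differences of −0.20, −0.10 and −0.12, none of them called. The probes of Dnajb11, a J-domain cofactor of Hspa5, disagreed: the brightest differed by −0.04, while a dim one, at −3.74, −3.54, −2.65 and −2.57, was higher in set 2 by 1.03 on the log2 scale (limma, adjusted p = 0.0159). The oxidase Ero1b, a dim probe with signals of −5.25, −4.49, −3.56 and −4.60, had the highest set difference, 0.79 (limma, adjusted p = 0.301). Its Cdh1 difference had opposite signs in the sets, 0.76 and −1.03. The disulfide-related protein Creld2 had the highest Cdh1 difference of the list, 0.09, and a set difference of −0.17 (limma, adjusted p = 0.2). The lowest Cdh1 differences were those of Ero1a and Ero1b, at −0.14 each, and neither was called.

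Of 14 tested genes of ER-associated degradation, 2 were lower in set 2 and 0 higher, with a median of −0.107. Derl3 was not well above background on any array and was not tested. Selenos, a membrane adaptor of the degradation complex, was lower, with a difference of −0.49 (limma, adjusted p = 0.0235), as was the ubiquitin ligase Syvn1, with −0.30 (limma, adjusted p = 0.0484). With treatment as a block neither was called, at adjusted p-values of 0.06 and 0.0853. Edem3, which trims mannose from misfolded glycoproteins, had a set difference of 0.24 (limma, adjusted p = 0.06). In the authors' table Edem3 was called higher (limma, adjusted p = 0.0455), and the list had 1 gene lower and 1 higher. Between Cdh1 and control the list ran from −0.09 for the lectin Os9, whose set difference was −0.06, to 0.05 for Syvn1.

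**Figure D4:**
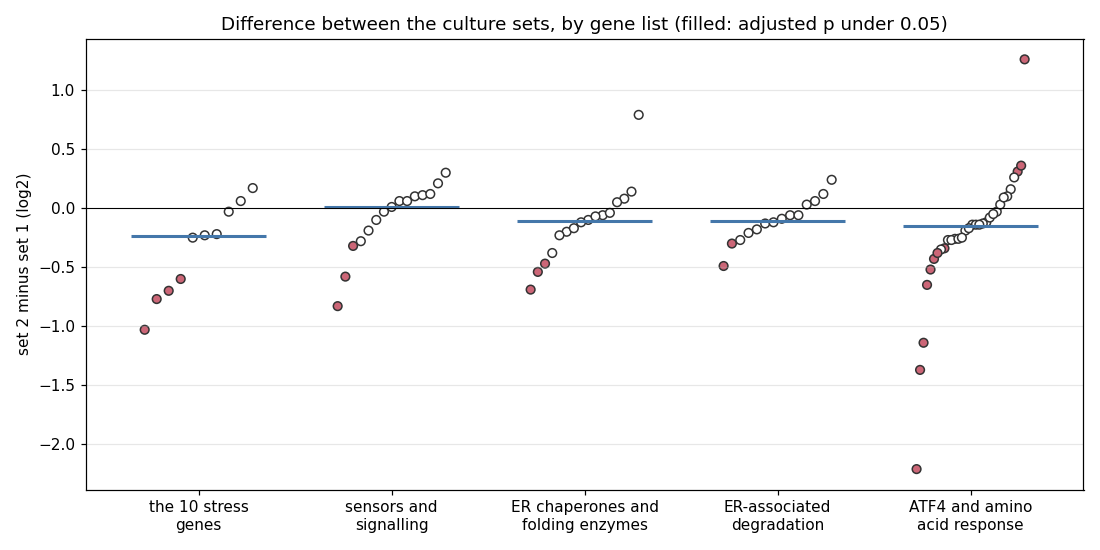
Difference between set 2 and set 1 on the log2 scale for each tested gene of the 5 gene lists, ordered within each list, with filled points at an adjusted p under 0.05 and the median as a line. The medians lie between −0.235 and 0.00519, and the ATF4 and amino acid list spans the widest range, from −2.21 to 1.26.

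The list of ATF4 and amino acid response genes outside the 10 members held genes called in both directions, like the array as a whole. Of 32 tested genes, 8 were lower in set 2 and 3 higher, with a median of −0.156, beside 10.5% and 7% of all tested genes. The largest fall was that of Vldlr, a lipoprotein receptor raised by Atf4, at −0.90, −1.01, −3.28 and −3.04 in the same order, 4.63-fold lower in set 2 (limma, adjusted p = 0.00861), a difference of −2.21 that was −1.5 with normexp. Slc7a11, the cystine importer, read 1.72, 1.80, 0.38 and 0.40 and was 2.59-fold lower (limma, adjusted p = 0.00772). Cth, which makes cysteine from cystathionine, read 2.71, 2.64, 1.63 and 1.44 and was 2.21-fold lower (limma, adjusted p = 0.0139). The other genes called lower were the alanine aminotransferase Gpt2, the stress protein gene Nupr1, the leucine sensor Sesn2, the leucine zipper factor Jdp2 and the serine synthesis enzyme Psph, with differences from −0.65 to −0.34.

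Genes of the same list that were higher in set 2 were Gdf15, Pycr1 and Aldh1l2. Gdf15, a secreted stress cytokine, read −1.01, −0.93, 0.25 and 0.33, a rise of 1.26 on the log2 scale (limma, adjusted p = 0.00892). Pycr1, of proline synthesis, and Aldh1l2, of mitochondrial folate metabolism, were higher by 0.36 and 0.31, with adjusted p-values of 0.0369 and 0.0432 in limma's test. With treatment as a block, Vldlr, Slc7a11 and Cth were called lower and Gdf15 higher, and with median centring 5 genes were called lower and 1 higher. Over all 14454 tested genes, 562 were called lower and 314 higher with that block, and 1151 and 808 with median centring. Fgf21, another secreted stress hormone, was well above background on both arrays of set 1 and on neither of set 2, was not tested because neither treatment group had it above background on both arrays, and was picked out after its values were seen. Its signals were −3.66, −3.88, −7.47 and −7.48, at least 4.13-fold higher in set 1, and its adjusted p was 0.0743 when dim probes were kept in limma's fit. The bound sets the mean of set 1 against the lowest signal well above background on each array of set 2. Stc2 was also not tested.

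With Cdh1, 25 of the 32 tested genes of this list had a difference below 0, and 21 were lower in both sets while 5 were higher in both. Over all tested genes, 58.6% were below 0, 31.6% were lower in both sets and 19.7% were higher in both. The median difference was −0.0497, beside −0.0143 over all tested genes, and 0 of the 32 were called or had an unadjusted p under 0.05 in limma's test. The lowest difference was that of Cth, −0.13, made up of −0.07 in set 1 and −0.19 in set 2. The highest was that of the leucine transporter gene Slc7a5, 0.17, whose set difference was −0.03 (limma, adjusted p = 0.848).

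The ERSE was held by 7 of the 13 chaperone and folding genes with a promoter in the table, Calr, Canx, Creld2, Dnajc3, Ero1b, Hsp90b1 and Pdia6, against 0.137% of all 27025 genes. Of these, Calr was called lower in set 2. In the degradation list, 2 of 11 genes with a promoter held an ERSE. They were Derl3, which was not tested, and Syvn1, which was called lower. A CARE was held by 8 of 26 genes of the ATF4 list with a promoter, against 4.51% of all genes. They were Fgf21, Jdp2, Nupr1, Pck2, Pycr1, Slc7a11, Vldlr and Yars. Jdp2, Nupr1, Slc7a11 and Vldlr were called lower and Pycr1 higher in the fit without a block. Over all tested genes, 10.5% were called lower in set 2 and 7% higher in that fit. With treatment as a block, Slc7a11 and Vldlr were still called lower, while Jdp2, Nupr1 and Pycr1 were not called. Their adjusted p-values were 0.0676, 0.0609 and 0.0709 in limma's test. Of the 14454 tested genes, that block called 562 lower and 314 higher. A match is a description of letters and was not tied to binding here.

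Across the 4 arrays, the mean centred profile of the 10 genes was 0.21 (control) and 0.15 (Cdh1) in set 1 and −0.16 (control) and −0.20 (Cdh1) in set 2. The 10 genes did not share this mean profile, as their set differences ran from −1.03 for Atf3 to 0.17 for Trib3. Of 77 genes of the wider lists ranked by Euclidean distance to this profile, the nearest were Psph and Jdp2, at 0.04 each, and Eif4ebp1, which encodes a repressor of translation initiation, at 0.06. Eif4ebp1 had a set difference of −0.35 and was not called (limma, adjusted p = 0.064). Distances over 4 arrays describe these libraries only.

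Other genes also differed between the sets. All 7 melanocyte markers were well above background on all 4 arrays, and their log2 summed signal was 10.60 and 10.57 in set 1 and 10.37 and 10.36 in set 2. Of these, Tyr, Pmel and Mitf were lower in set 2, with differences of −1.77, −0.42 and −0.39 (limma, adjusted p = 0.00923, 0.0299 and 0.0419). Mlana, Tyrp1 and Dct, at −0.21, −0.15 and −0.12, were not called, nor was Sox10, which was 0.20 higher in set 2. Over all tested genes, 10.5% were called lower and 7% higher. Of the markers of other cell types, Epcam and Krt8 (epithelium), Ptprc (leukocytes), Cdh5 (endothelium) and Dcn (fibroblasts) were not well above background on any array. Krt5 and Krt14 (epithelium), Cd3e and Itgam (leukocytes), Pecam1 (endothelium) and Pdgfra (fibroblasts) were well above background on all 4 arrays. Pdgfra was lower in set 2, with a difference of −0.41 (limma, adjusted p = 0.0359). Itgam read 3.22 to 3.44. The log2 summed signal was −3.57 to −3.53 for 4 epithelial, −3.89 to −3.40 for 2 endothelial and −4.46 to −4.13 for 2 fibroblast markers over the 4 arrays. The part of any of these in the stress gene differences was not tested.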

How the data were processed

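Scans were turned into spot values by the authors with Agilent Feature Extraction 12.0.3.1, per the submitters' processing notes. The deposited scanner files give a processed intensity per spot, background-subtracted and detrended within the array, and a deposited table gives the same intensity times 1 factor per array. All arrays were on 1 slide in 1 scan, per the file headers. Here, outlier spots were left out, log2 intensities were set relative to the 75th percentile of each array's non-control spots, and spots of a probe were averaged. Of 56605 probes, 32568 were tested with limma 3.58.1 in R 4.3.3, a probe entering both comparisons if the control pair or the Cdh1 pair of arrays both showed it well above background, with p-values adjusted by Benjamini-Hochberg at 0.05. The groups were control and Cdh1 (2 arrays each) or set 1 and set 2 (2 each). A gene is its brightest tested probe, named through RefSeq accessions (33767 probes matched a symbol). The design text pairs the arrays of a set. Their deviations from the group means correlated at 0.744 in both sets, which 2 pairs give equally by construction. The code was tested on simulated data. The members and lists were chosen with earlier results of these data known. From each wider list, the text names the genes at both ends of each difference and, chosen after seeing values, those called between sets. Alternatives changed the normalization, background correction, filter, block, prior, slide rows, probe choice and arrays.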

Additional observations from a re-analysis of the deposited data

How the results depend on the processing

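Between set 2 and set 1, 4571 probes were called. The count was 1597 with treatment as a block, 8502 with normexp and quantile normalization, 10712 with a trended and robust prior, 0 with dim probes kept (9530 at an unadjusted p under 0.05 in limma's test), and 0 without any 1 array (7590 to 8841). Of the 10 stress genes, 4 were called; the count was 0 with dim probes kept (lowest adjusted p = 0.0937) and 0 without any 1 array, 5 with normexp, 6 with the trended and robust prior and 4 in the other alternatives. Between Cdh1 and control, 0 probes and 0 members were called in every alternative, with 109 to 2335 probes at an unadjusted p under 0.05 in limma's test, the highest with the set as a replicate block. That replicate block called 0 of the 10 genes, with a lowest adjusted p of 0.696. The cause of these changes was not tested. With 2 arrays a group, precision was limited by their number. The Ero1b probe and the dim Dnajb9 and Dnajb11 probes were nearer to background than the brightest probes of the 10 genes. Fgf21 was not well above background in set 2.

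Small differences changed sign with the scaling. Between Cdh1 and control, Herpud1 was 0.02 with normexp, 0.01 with quantile normalization and 0.02 in the authors' table. Traf2 was 0.01 in these settings, Sesn2 was 0.02 with quantile normalization and in the authors' table, Calr was 0.01 with normexp, and Edem3 was 0.02 in the authors' table. Median centring gave −0.04 for Atf4, Trib3 and Dnajb9, −0.01 for Xbp1, −0.02 for Aldh1l2 and −0.03 for Selenos, and the mean over probes −0.01 for Aldh1l2. Between the sets, Atf4 was 0.13 with normexp, 0.12 with quantile normalization and 0.02 in the authors' table, Os9 0.01 with normexp and Slc7a5 0.01 in the authors' table.

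Between the sets, some calls of single genes outside the 10 also depended on the scaling. Median centring ended those of Aldh1l2, Ern1, Jdp2, Nupr1, Psph, Pycr1 and Syvn1, the authors' table those of Ern1, Psph and Syvn1, and quantile normalization those of Psph and Syvn1.

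Without 1 array, the sets are unequally represented in the groups, and the Cdh1 difference took both signs in many genes. Among the 10 stress genes it ran from −0.74 to 0.36 for Atf3, −0.02 to 0.03 for Atf4, −0.36 to 0.36 for Dnajb9, −0.40 to 0.39 for Herpud1, −0.23 to 0.38 for Hspa5, −0.12 to 0.13 for Trib3 and −0.10 to 0.17 for Xbp1. Among sensors and ER genes it ran from −0.34 to 0.28 for Atf6, −0.30 to 0.25 for Calr, −0.02 to 0.20 for Creld2, −0.13 to 0.12 for Edem3, −0.04 to 0.20 for Eif2ak3, −0.20 to 0.15 for Ern1, −0.50 to 0.22 for Ero1a, −0.98 to 0.70 for Ero1b, −0.65 to 0.25 for Ppp1r15a, −0.19 to 0.32 for Sdf2l1, −0.26 to 0.28 for Selenos, −0.11 to 0.21 for Syvn1 and −0.19 to 0.17 for Traf2. Among ATF4 genes it ran from −0.14 to 0.19 for Aldh1l2, −0.73 to 0.47 for Cth, −0.30 to 0.09 for Eif4ebp1, −0.55 to 0.71 for Gdf15, −0.44 to 0.28 for Gpt2, −0.28 to 0.11 for Jdp2, −0.42 to 0.16 for Nupr1, −0.24 to 0.12 for Psph, −0.23 to 0.13 for Pycr1, −0.22 to 0.22 for Sesn2, −0.66 to 0.74 for Slc7a11 and −1.12 to 1.26 for Vldlr. Between the sets, Slc7a5 ran from −0.16 to 0.09.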
